A study of Mus musculus with 4 samples.

Results

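The splicing factors and small nuclear ribonucleoprotein (snRNP) proteins described here are 81 genes, chosen by name from the 24411 gene rows shared by the 4 expression tables. The rule took the numbered SR protein genes (*Srsf*), the hnRNP genes (*Hnrnp*), the SF3A and SF3B subunits (*Sf3a*, *Sf3b*), the snRNP protein genes (*Snrp* and *Snrnp*), the U2AF subunits, the *Prpf* genes, the *Ptbp* genes, *Tra2a*, *Tra2b* and *Rbmxl2*. The rule uses names and no measured value. The libraries came from GFP-positive cells sorted out of mouse testes at postnatal day 18, and the study used them to ask how loss of ZFP541, a zinc finger protein made in meiotic prophase, changed the transcriptome of spermatocytes. The controls were 2 *Zfp541*+/- libraries and the mutants 2 *Zfp541* KO libraries, each from an individual testis. Every mouse carried a knock-in at *Rec8* (*Rec8*-3xFLAG-HA-p2A-GFP), so GFP was made together with REC8, a meiotic cohesin subunit. 1 control testis was heterozygous for that knock-in, whereas the other control and both KO testes were homozygous, and the labels do not say which control library is which. The strain is labelled C57BL/6 and CBA mixed. The KO allele was a deletion spanning many exons of *Zfp541*, and the controls kept 1 intact copy, so no wild-type library entered the comparison.

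The spliceosome removes introns from pre-mRNA. Its snRNPs are small RNAs wrapped in proteins: a ring of Sm proteins common to most of them, and proteins particular to U1, which reads the 5' splice site, to U2, which reads the branch site, and to the U4/U6.U5 tri-snRNP, which carries the catalytic core. U2AF binds the 3' splice site and SF3A and SF3B hold U2 on the branch site. SR proteins mostly bind exons and favour their inclusion, whereas hnRNP proteins coat the pre-mRNA and often oppose it. The testis has an unusually rich repertoire of alternative splicing, and germ cells use regulators of their own, among them PTBP2 and RBMXL2, a retrogene-encoded relative of the X-linked RBMX that is made when the sex chromosomes are silenced in meiosis.

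Values are TPM, a transcript abundance that scales each gene by its length and each library to the same total, so levels may be compared between genes. TPM keep no read depth, and the depth of each library and the counting error behind each value are therefore unknown. In sorted bulk cells, fewer cells of a type and less RNA per cell cannot be told apart. The 4 libraries were unlike each other in more than genotype. Of the 12 markers of meiotic prophase all were detected, and their summed TPM was 3944 and 4625 in the controls and 6583 and 6973 in the KO libraries. The summed level of 10 pachytene markers was 6477 and 3070 in the controls and 2361 and 3262 in the KO libraries. Of these 10, 1 (*Mybl1*) was higher in both KO libraries, 5 were lower and 4 overlapped. The pachytene histone gene *Hist1h1t* was at 2.55 TPM or less in every library, in libraries that select polyadenylated RNA. The paper describes the sorted population as enriched in H1t-positive pachytene cells, and how far the *Hist1h1t* level follows their share was not tested. Macrophage markers summed to 2532 TPM in control 1, 28.7 in control 2 and 2150 and 1574 in the KO libraries, and Leydig cell markers to 2910, 18.0, 331 and 504 TPM, with *Lhcgr* at 0 in control 2. Spermatogonial markers summed to 378, 1087, 918 and 708 TPM in the same order, Sertoli cell markers to 835, 724, 1096 and 777 and red blood cell markers to 71.5, 20.3, 29.7 and 281. Markers of spermatids, myoid cells and endothelium stayed under 40 TPM in sum, with the protamine gene *Prm1* at 0 in 3 of the 4 libraries. The part of these differences in the results below was not tested. *Zfp541* itself, the targeted gene, was at 112 and 72.2 TPM in control cells and at 136 and 151 TPM in the KO libraries (log2 difference 0.67 ± 0.28, SE; limma adjusted p = 0.371). The *Zfp541* level was therefore no lower under the KO label, although the paper reports that the protein was absent from KO testes. A TPM per gene does not separate the deleted exons from the rest, and the source of these reads was not tested. The mutant libraries are therefore called the libraries labelled *Zfp541* KO, or KO for short.

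All 81 splicing genes were expressed, with none at 0 in any library. Their mean levels ran from 4.38 TPM (*Srsf12*) to 1136 TPM (*Hnrnpa2b1*), with a median of 183 TPM, and 61 of them exceeded 100 TPM. In the order of means over all 4 libraries, after *Hnrnpa2b1* came *Snrpd2* at 877 TPM, *Hnrnph1* at 870, *Hnrnpk* at 710, *Hnrnpf* at 656 and *Srsf5* at 653. The place of *Snrpd2* rested on control 2, at 1567 TPM. In the KO libraries it was at 677 and 673 TPM, below *Hnrnph1*, *Hnrnpk*, *Snrnp70* and *Srsf5*. The lowest after *Srsf12* were *Snrpn* at 12.6 TPM and *Ptbp3* at 23.0. Together the 81 genes took 1.79% and 1.80% of all TPM in control cells and 2.31% and 2.33% in the KO libraries.

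Against this background, most splicing genes were measured higher in the KO libraries, although none passed the test. Differences are in log2(TPM + 1), KO minus control, fitted with limma over the 14512 genes whose mean was at least 1 TPM, and p-values were adjusted over all of these genes. No splicing gene reached an adjusted p of 0.05, the smallest being 0.315, and among all genes tested 0% did. The paper, which used other software for differential expression, reports upregulated and downregulated genes at a false discovery rate of 0.05 or less. At an unadjusted p under 0.05, 14 of the 81 were higher and 0 lower (17.3%), against 14.4% of all genes tested in either direction, 10.7% higher and 3.73% lower. Both KO libraries lay above both controls for 50 splicing genes (61.7%), against 38.6% of all genes tested, and below both for 3 (3.70%), against 12.1%. The remaining 28 overlapped. The difference was above 0 for 69 splicing genes (85.2%), against 69.0% of all genes tested. The median difference was 0.41 for the splicing genes and 0.28 for all genes tested, so that a shift of 0.28 belonged to the whole table, and 52 of the 81 exceeded it.

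These counts depended on the libraries and on the scaling. With median-ratio scaling between libraries, which moves the median of all genes to -0.015, the splicing median became 0.074, 27 splicing genes (33.3%) lay above both controls, against 22.6% of all genes, and 10 (12.3%) below, against 22.8%, and 48 exceeded the median of all genes. Without control 1 the splicing median was 0.43 against 0.44 for all genes, and 40 of the 81 exceeded it. Without control 2 the medians were 0.36 and 0.15, and 64 exceeded it. The controls lay further apart than the KO libraries for 78 of the 81 genes, with a median distance of 0.56 on the log2 scale between the controls and 0.058 between the KO libraries. For 47 genes the gap between the controls was larger than the difference between the groups.

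**Figure D1:**
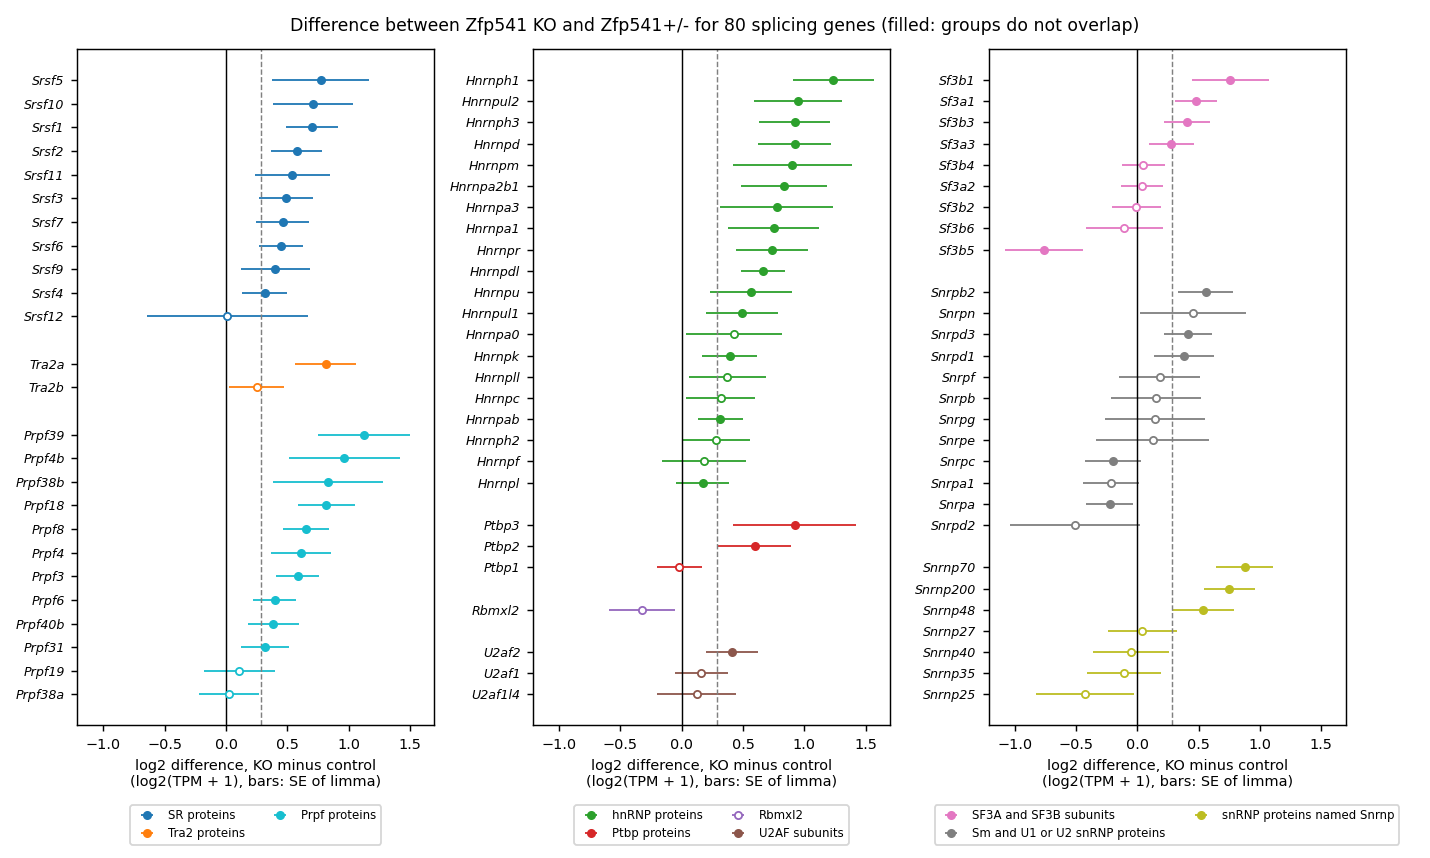
Difference between the libraries labelled *Zfp541* KO and the *Zfp541*+/- controls for 80 of the 81 splicing genes, in log2(TPM + 1), by group. Points are limma estimates and bars their standard errors from 2 libraries a group, filled points mark the 52 genes whose groups do not overlap, the dashed line is the median of all genes tested (0.28), and the SR, hnRNP and *Prpf* genes lie mostly to its right, the SF3 and *Snrp* genes mostly to its left.

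Among the 11 SR protein genes, 10 were higher in both KO libraries (all genes tested: 38.6%), 1 overlapped and the median difference was 0.49. With median-ratio scaling the median was 0.15 and 4 remained above both controls (all genes tested: 22.6%). *Srsf1*, a prototype of the family and a regulator of both constitutive and alternative exons, was at 185 and 143 TPM in control cells and 258 and 272 TPM in the KO libraries. The difference was 0.70 ± 0.21 (SE; unadjusted p = 0.0274, limma adjusted p = 0.320), and the gap between the controls was smaller than that between the groups. *Srsf2*, which also helps to release paused polymerase, was at 417 and 368 TPM against 594 and 574 TPM (0.57 ± 0.21, unadjusted p = 0.0451, limma adjusted p = 0.339). *Srsf5*, with the highest mean of the family over the 4 libraries though not in control 2, was at 668 and 334 TPM in control cells and at 804 and 807 TPM in the KO libraries, and its controls differed by 1.00 on the log2 scale, more than the groups did (0.77 ± 0.40).

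*Srsf10*, for a protein that represses splicing once it is dephosphorylated in heat-shocked cells, was at 224 and 127 TPM against 274 and 279 TPM (0.71 ± 0.33, limma adjusted p = 0.396). *Srsf3* and *Srsf7*, short proteins that couple splicing to mRNA export, were both higher in control 2 than in control 1 and still below either KO library. *Srsf3* was at 299 and 379 TPM against 470 and 475 TPM, and *Srsf7* at 220 and 282 TPM against 344 and 341 TPM. The exception was *Srsf12*, the scarcest of all the splicing genes, at 7.64 and 1.87 TPM in control cells and 3.90 and 4.12 TPM in the KO libraries. Its groups overlapped, and its difference of 0.0084 ± 0.66 turned negative under median-ratio and quantile scaling.

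The transformer 2 proteins bind exonic enhancers alongside SR proteins. *Tra2a* was at 206 and 142 TPM in control cells and 306 and 297 TPM in the KO libraries, which gave 0.81 ± 0.25 (unadjusted p = 0.0289, limma adjusted p = 0.320), with no overlap. *Tra2b*, which encodes the paralogue known to bind testis-specific exons, was at 351 and 283 TPM against 348 and 404 TPM, and the groups overlapped. Its difference was 0.25 ± 0.22, and -0.086 with median-ratio scaling.

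Of the 20 hnRNP genes, 15 were higher in both KO libraries (all genes tested: 38.6%), 5 overlapped and none was lower. The median was 0.61, 0.95 without control 1 and 0.30 without control 2. With median-ratio scaling it was 0.28 and 9 lay above both controls (all genes tested: 22.6%). *Hnrnph1* (chr11:50376990-50386528, plus strand of GRCm38) encodes a protein that binds runs of guanines near splice sites. *Hnrnph1* was at 657 and 400 TPM in control cells and at 1190 and 1232 TPM in the KO libraries, a difference of 1.24 ± 0.33 or 2.36-fold (unadjusted p = 0.0175, limma adjusted p = 0.315). This was the largest difference of the 81, and the KO libraries exceeded the higher control by 0.86 and 0.90 on the log2 scale. Its relative *Hnrnph3* was at 233 and 145 TPM against 344 and 354 TPM (0.92 ± 0.29), whereas the X-linked *Hnrnph2* was at 49.0 and 32.9 TPM against 52.1 and 46.0 TPM and overlapped.

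*Hnrnpd*, which encodes the AU-rich element binding protein AUF1, was at 76.7 and 46.7 TPM against 111 and 118 TPM (0.92 ± 0.30, unadjusted p = 0.0331). Its relative *Hnrnpdl* was among the few hnRNP genes whose controls lay close together, at 148 and 166 TPM, with 253 and 245 TPM in the KO libraries (0.66 ± 0.18, unadjusted p = 0.0189, limma adjusted p = 0.315). *Hnrnpul2*, for a scaffold-attachment-factor-like protein, was at 128 and 66.9 TPM against 181 and 177 TPM (0.95 ± 0.36, limma adjusted p = 0.349). These genes shared the order control 2, control 1, KO, except for *Hnrnpdl*, where control 1 was the lowest.

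Of the genes for the A and C proteins that package pre-mRNA, *Hnrnpa1*, *Hnrnpa2b1* and *Hnrnpa3* were separated between the groups, whereas *Hnrnpa0* and *Hnrnpc* overlapped. *Hnrnpa2b1*, for a protein that also binds methylated RNA, was at 1045 and 622 TPM in control cells and at 1481 and 1396 TPM in the KO libraries (0.83 ± 0.35, limma adjusted p = 0.377). *Hnrnpa1*, a repressor of many exons with numerous processed pseudogenes between which reads may be divided, was at 80.6 and 42.2 TPM against 108 and 90.4 TPM (0.75 ± 0.37). *Hnrnpc*, which covers uridine tracts, was at 236 and 368 TPM against 377 and 358 TPM. Its groups overlapped, and its difference of 0.32 ± 0.28 was -0.019 with median-ratio scaling. *Hnrnpa0* was at 236 and 115 TPM against 215 and 230 TPM. *Hnrnpk*, the poly(C)-binding protein, was at 651 and 578 TPM against 820 and 789 TPM (0.39 ± 0.22). The products of *Hnrnpl* and its paralogue *Hnrnpll* bind CA repeats. *Hnrnpl* had the smallest difference of the 20, at 506 and 571 TPM against 584 and 626 TPM (0.17 ± 0.21, and -0.17 with median-ratio scaling). *Hnrnpll* was at 201 and 118 TPM against 200 and 199 TPM.

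Polypyrimidine tract binding proteins repress exons flanked by pyrimidine-rich introns, and *Ptbp2* is the form of neurons and germ cells. *Ptbp2* was at 208 and 127 TPM in control cells and 236 and 258 TPM in the KO libraries (0.59 ± 0.30, limma adjusted p = 0.421). *Ptbp1*, the general form, was at 151 and 157 TPM against 163 and 141 TPM, so its groups overlapped around a difference of -0.020 ± 0.18. *Ptbp3* was at 23.8 and 9.38 TPM against 31.6 and 27.3 TPM (0.92 ± 0.50). *Rbmxl2*, in contrast, was lower on average, at 152 and 219 TPM in control cells and 131 and 161 TPM in the KO libraries, overlapping, with a difference of -0.32 ± 0.27 (limma adjusted p = 0.592) that stayed negative under each scaling.

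**Figure D2:**
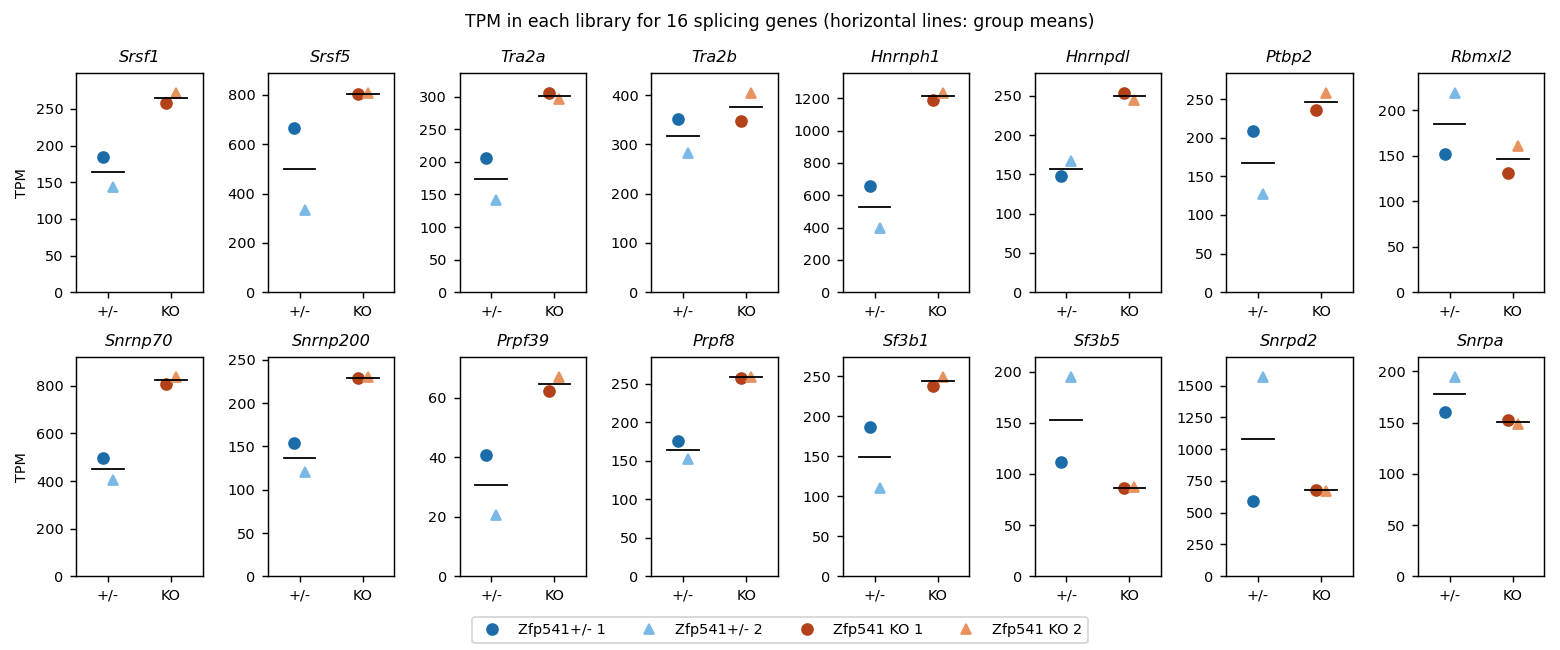
TPM in each library for 16 splicing genes, with circles for replicate 1, triangles for replicate 2 and horizontal lines for group means (n = 2 libraries a group). The KO points nearly coincide in most panels while the control points stand apart, and *Sf3b5* and *Snrpa* are the panels in which both KO libraries lie below both controls.

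Of the genes that define the 3' splice site and the branch site, 1 of 3 U2AF genes and 3 of 9 SF3 genes exceeded the median difference of all genes. *U2af2*, for the subunit that binds the polypyrimidine tract, was at 248 and 313 TPM in control cells and 377 and 364 TPM in the KO libraries (0.41 ± 0.21). *U2af1*, for the subunit that binds the AG dinucleotide, was at 263 and 337 TPM against 339 and 326 TPM, and its paralogue *U2af1l4* at 60.9 and 106 TPM against 84.1 and 91.5 TPM. Both overlapped, and their differences of 0.16 and 0.12 became -0.17 and -0.21 with median-ratio scaling.

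The 9 SF3A and SF3B subunits, which work as one complex, split. Of these, 4 were higher in both KO libraries, 1 was lower and 4 overlapped (all genes tested: 38.6% higher and 12.1% lower). The median was 0.049, and it was -0.28 with median-ratio and -0.014 with quantile scaling. *Sf3b1*, for the scaffold that grips the branch-site helix, was at 187 and 110 TPM in control cells and 238 and 249 TPM in the KO libraries (0.76 ± 0.31, limma adjusted p = 0.367). *Sf3a1* was the subunit with an unadjusted p under 0.05, at 88.0 and 84.1 TPM against 118 and 123 TPM (0.48 ± 0.17, unadjusted p = 0.0459, limma adjusted p = 0.340). Its difference was 0.15 with median-ratio scaling and 0.058 after coding-length correction. *Sf3b5* (chr10:13005343-13009183), for a small subunit of the same complex, went the other way, at 112 and 194 TPM against 86.4 and 86.7 TPM. Its difference of -0.76 ± 0.32 (limma adjusted p = 0.374) was the most negative of the 81, and both KO libraries lay below both controls also after median-ratio, quantile and coding-length correction.

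The *Snrp* genes, for the Sm ring and the small U1 and U2 proteins, showed no common direction. Of 12, 3 were higher in both KO libraries, 2 lower and 7 overlapped (all genes tested: 38.6% higher and 12.1% lower). The median was 0.15, -0.19 with median-ratio scaling, 0.26 with quantile scaling and 0.25 after coding-length correction. With the TPM as deposited and with median-ratio scaling, 4 of the 12 exceeded the median of all genes. With quantile scaling and with coding-length correction, 8 did. Their summed level was 3102 TPM in control 1, 5551 TPM in control 2 and 4223 and 4106 TPM in the KO libraries, so that the KO libraries fell between the controls. *Snrpd2*, the most abundant Sm gene, was the extreme case, at 591 and 1567 TPM in control cells and 677 and 673 TPM in the KO libraries (-0.51 ± 0.53). Its difference was -1.21 without control 1 and 0.19 without control 2. *Snrpb*, for SmB, was at 363 and 679 TPM against 575 and 531 TPM, and *Snrpe*, *Snrpf* and *Snrpg* followed the same order, with control 1 lowest and control 2 highest.

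The U1 and U2 proteins differed from one another. *Snrpb2*, for U2 B'', was the highest of the *Snrp* genes in difference, at 140 and 189 TPM against 242 and 237 TPM (0.56 ± 0.23, limma adjusted p = 0.365). Its partner *Snrpa1*, for U2 A', was at 96.8 and 132 TPM against 96.7 and 97.6 TPM, and overlapped. *Snrpa* (chr7:27187005-27196271), for U1 A, was at 161 and 194 TPM against 153 and 149 TPM (-0.23 ± 0.19, limma adjusted p = 0.605), and *Snrpc*, for U1 C, at 424 and 540 TPM against 420 and 414 TPM (-0.20 ± 0.23), so both were just below the lower control. *Snrpn*, the imprinted gene for SmN, a near copy of SmB with which it may share reads, was at 7.33 and 14.2 TPM against 15.8 and 13.2 TPM.

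*Snrnp70*, for the third U1 protein, stood in contrast to *Snrpa* and *Snrpc*. This gene (chr7:45376453-45395742, minus strand) was at 497 and 405 TPM in control cells and 809 and 837 TPM in the KO libraries, a difference of 0.87 ± 0.23 or 1.83-fold (unadjusted p = 0.0168, limma adjusted p = 0.315). The U5 helicase gene *Snrnp200*, whose product unwinds U4 from U6, was at 154 and 120 TPM against 229 and 230 TPM (0.75 ± 0.21, unadjusted p = 0.0200). In both cases the groups were further apart than the controls, but after coding-length correction the difference was 0.61 for *Snrnp70* and 0.0067 for *Snrnp200*, whose coding sequence is 6408 nt long. The other U5 protein of this name, *Snrnp40*, overlapped at 136 and 231 TPM against 170 and 172 TPM.

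The genes of the minor spliceosome, which removes a rare class of introns, were *Snrnp25*, *Snrnp35* and *Snrnp48*. *Snrnp48* was higher in both KO libraries, at 29.6 and 22.5 TPM against 36.9 and 38.9 TPM (0.54 ± 0.25). *Snrnp25* was at 88.3 and 183 TPM against 87.4 and 102 TPM (-0.42 ± 0.40), and *Snrnp35* at 123 and 75.8 TPM against 83.1 and 96.5 TPM, both overlapping. The median of the 7 *Snrnp* genes was 0.041, and -0.29 with median-ratio scaling.

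The 13 *Prpf* genes encode pre-mRNA processing factors of the U5 and U4/U6 particles, of U1 and of the activation steps. Of these, 11 were higher in both KO libraries (all genes tested: 38.6%) and 2 overlapped. The median was 0.59 (0.25 with median-ratio scaling and 0.030 after coding-length correction). *Prpf39* (chr12:65036333-65063386, plus strand), for a U1-associated factor, had the second largest difference of the 81. *Prpf39* was at 40.7 and 20.7 TPM in control cells and 62.3 and 66.9 TPM in the KO libraries (1.12 ± 0.38 or 2.18-fold, unadjusted p = 0.0376, limma adjusted p = 0.328). *Prpf8*, for the protein that cradles the catalytic RNA, had close controls, at 176 and 153 TPM, and 258 TPM in either KO library (0.65 ± 0.18, unadjusted p = 0.0217, limma adjusted p = 0.315). That difference became -0.12 after coding-length correction, *Prpf8* having the longest coding sequence of the 81 at 7005 nt.

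The tri-snRNP gene *Prpf3* was at 74.0 and 79.1 TPM against 118 and 113 TPM (0.59 ± 0.18, unadjusted p = 0.0258, and 0.21 after coding-length correction), and the second-step factor gene *Prpf18* at 47.9 and 35.9 TPM against 75.3 and 72.3 TPM (0.82 ± 0.23, unadjusted p = 0.0217). *Prpf4b*, for a kinase of the tri-snRNP, was at 76.4 and 32.4 TPM against 92.4 and 104 TPM (0.96 ± 0.45, limma adjusted p = 0.404). The ubiquitin ligase gene *Prpf19* was at 54.1 and 85.2 TPM against 79.1 and 67.9 TPM, and *Prpf38a* at 100.4 and 145 TPM against 121 and 124 TPM. These last 2 overlapped, and their differences of 0.11 and 0.024 became negative under median-ratio and quantile scaling.

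**Figure D3:**
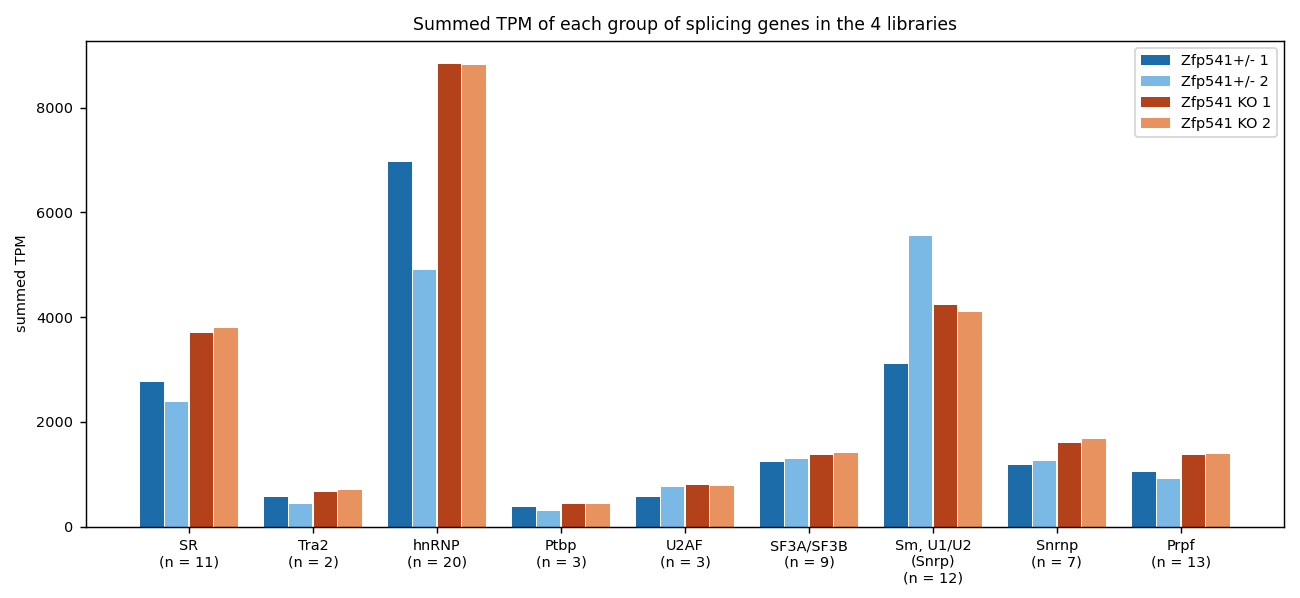
Summed TPM of each group of splicing genes in the 4 libraries, with bars from 0 and the number of genes under each group. The hnRNP sum is 6968 and 4904 in the controls and 8835 and 8810 in the KO libraries, whereas the *Snrp* sum of the KO libraries falls between the controls.

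Over the scalings tried, 23 splicing genes had both KO libraries above both controls with the TPM as deposited and also after median-ratio, quantile and coding-length correction, and 2 (*Sf3b5* and *Snrpa*) had both below. These are 28.4% and 2.47% of the splicing genes, against 17.3% and 10.6% of the 13127 tested genes with a coding length. The 23 comprised 9 hnRNP genes, 5 *Prpf* genes, 4 SR protein genes, *Tra2a*, *Ptbp3*, *Sf3b1*, *Snrnp48* and *Snrnp70*. None belonged to the *Snrp* or U2AF genes.

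The letters of the promoters are shown for 5 genes, chosen after their values were seen, as examples from different groups: *Snrnp70*, *Prpf39* and *Tra2a* (higher in both KO libraries), *Snrpa* (lower) and the germ-cell gene *Rbmxl2*. They are not the 5 most extreme genes. Each line is the 250 bases before the RefSeq transcription start in GRCm38.p6, 5' to 3' on the gene's strand. Capitals mark every match, on either strand, to GCGCANGC (the NRF1 motif), CCGGAAG (ETS), GGGCGG (SP and KLF), CCAAT (NF-Y), TGACGTCA (CREB and ATF) and AAGATGGC (YY1). The windows were chr7:45395743-45395992 for *Snrnp70*, chr12:65036084-65036333 for *Prpf39*, chr6:49264053-49264302 for *Tra2a*, chr7:27196272-27196521 for *Snrpa* (the outer of 2 listed starts) and chr7:107209195-107209444 for *Rbmxl2*.
Snrnp70: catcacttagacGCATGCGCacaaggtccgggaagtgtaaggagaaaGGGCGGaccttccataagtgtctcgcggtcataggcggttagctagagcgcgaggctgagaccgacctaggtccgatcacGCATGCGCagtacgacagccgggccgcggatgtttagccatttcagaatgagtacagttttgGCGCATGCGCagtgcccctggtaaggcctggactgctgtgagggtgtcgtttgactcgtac
Prpf39: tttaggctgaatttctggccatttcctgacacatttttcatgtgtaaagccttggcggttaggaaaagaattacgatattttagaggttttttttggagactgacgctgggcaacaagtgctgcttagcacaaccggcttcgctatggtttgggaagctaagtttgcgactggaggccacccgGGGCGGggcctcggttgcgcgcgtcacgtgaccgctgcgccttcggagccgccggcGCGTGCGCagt
Tra2a: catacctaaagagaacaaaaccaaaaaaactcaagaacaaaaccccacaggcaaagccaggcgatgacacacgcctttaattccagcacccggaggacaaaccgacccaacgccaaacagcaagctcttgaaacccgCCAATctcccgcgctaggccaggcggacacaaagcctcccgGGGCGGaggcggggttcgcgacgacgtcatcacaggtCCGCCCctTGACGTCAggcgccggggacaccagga
Snrpa: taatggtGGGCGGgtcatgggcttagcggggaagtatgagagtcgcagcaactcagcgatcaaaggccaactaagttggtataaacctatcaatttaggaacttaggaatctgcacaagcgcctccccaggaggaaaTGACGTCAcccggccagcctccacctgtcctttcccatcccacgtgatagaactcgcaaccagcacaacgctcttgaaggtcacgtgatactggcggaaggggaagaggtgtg
Rbmxl2: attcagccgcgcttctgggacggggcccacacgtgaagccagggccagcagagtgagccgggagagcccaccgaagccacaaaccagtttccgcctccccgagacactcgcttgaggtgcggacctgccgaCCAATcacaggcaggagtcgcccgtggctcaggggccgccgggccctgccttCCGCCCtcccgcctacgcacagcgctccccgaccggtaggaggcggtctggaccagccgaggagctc
The *Snrnp70* window held the NRF1 motif at 3 places, 1 of them a palindrome that matched on both strands, and the *Prpf39* window held it once. The *Tra2a* and *Snrpa* windows each held 1 full cyclic AMP response element. *Rbmxl2* had the highest GC content of the 5, 70.0%, with 1 CCAAT box and 1 GGGCGG. Of the 81 genes, 70 had a RefSeq window. NRF1 matches occurred in 32.9% of these 70, in 18.1% of the tested genes with a window and in 9.38% of all genes with one. ETS matches occurred in 28.6%, 15.0% and 7.83%, GGGCGG in 70.0%, 61.7% and 35.4%, CCAAT in 47.1%, 40.6% and 37.5%, TGACGTCA in 4.29%, 3.00% and 1.77%, and AAGATGGC in 2.86%, 2.33% and 1.83%. The median GC content was 59.3% for the splicing genes and 59.6% for the tested genes. These counts describe letters in a window and not bound sites.

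Differences also went with coding length. All 12 splicing genes with a coding sequence under 600 nt, among them 6 genes of the Sm ring, were higher in control 2 than in control 1, against 952 of the 1697 tested genes of that length. Their median gap between the controls was 0.78, and the KO libraries lay between, 0.40 above control 1 and 0.38 below control 2 at the median. The 38 genes of 1200 nt or more included 30 that were higher in both KO libraries (78.9%) and none that was lower, with a median difference of 0.50. Among all 7588 tested genes of that length 47.7% were higher and 7.30% lower, with a median of 0.41. The 31 genes between those lengths had a median of 0.45, against 0.17 for all genes of that length. Across the 81 genes, Spearman's rho of coding length was -0.53 with the difference between the controls and 0.41 with the difference between the groups. Across the 13127 tested genes with a coding length, the values were -0.26 and 0.30. These correlations are descriptions over genes of the same 4 libraries, and genes are not independent replicates. After a smooth trend on coding length was removed from each library, the splicing median was 0.14, against 0.012 for all genes with a length.

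**Figure D4:**
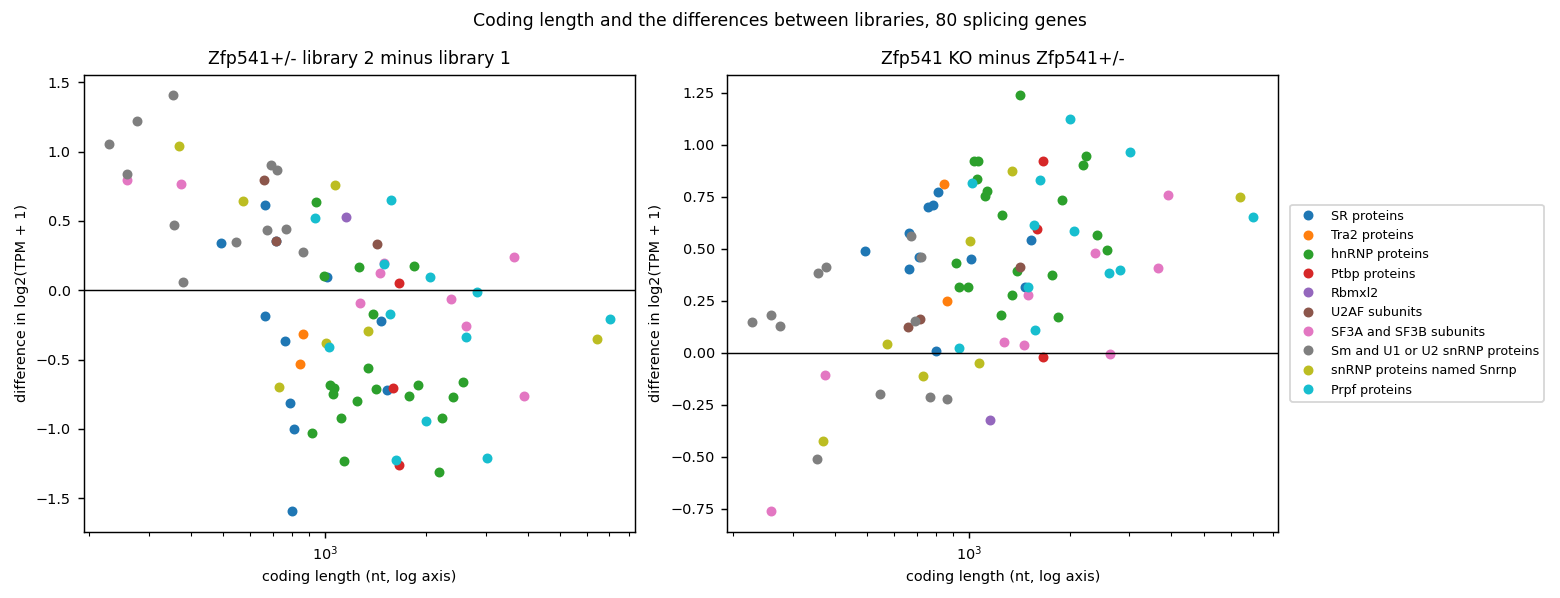
Coding length of 80 of the 81 splicing genes (log axis, nt) against the difference between the 2 control libraries (left) and between the groups (right), in log2(TPM + 1), coloured by group. The short Sm genes sit high on the left and low on the right, and the longer hnRNP and *Prpf* genes the reverse.

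Ratios between related genes within a library do not change when a library is multiplied by 1 factor, as in median-ratio scaling, although quantile and coding-length correction can move them, and 10 pairs were compared on the TPM as deposited. In 4 pairs the ratio was higher in both KO libraries, in 1 lower and in 5 overlapping. With 2 libraries against 2, the two-sided exact permutation test cannot give a p under 0.333, and adjusted over the 10 pairs the smallest was 0.667. *Ptbp2* to *Ptbp1* was 1.38 and 0.81 in the controls and 1.45 and 1.83 in the KO libraries, a difference in log2 ratio of 0.62. *Tra2a* to *Tra2b* was 0.59 and 0.50 against 0.88 and 0.73 (0.56), and the controls agreed more closely here than for either gene alone. *Hnrnph2* to *Hnrnph1* had the largest difference, -0.95, from ratios of 0.074 and 0.082 in the controls to 0.044 and 0.037 in the KO libraries.

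*Hnrnpul2* to *Hnrnpul1* was 0.34 and 0.28 against 0.44 and 0.41 (0.46), and *Snrpn* to *Snrpb* was 0.020 and 0.021 against 0.027 and 0.025 (0.35), although after quantile scaling the fitted difference of *Snrpn* (0.25) was below that of *Snrpb* (0.31). *Rbmxl2* to the X-linked *Rbmx* was 7.08 and 16.1 in the controls and 6.08 and 8.51 in the KO libraries. That ratio overlapped, with a difference of -0.57 (exact permutation p = 0.667), and the retrogene exceeded its X-linked relative at least 6.08-fold in every library, as far as reads can be assigned between near copies. The ratios of *Hnrnpll* to *Hnrnpl*, *Hnrnpdl* to *Hnrnpd*, *U2af1l4* to *U2af1* and *Srsf12* to *Srsf10* also overlapped.

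**Figure D5:**
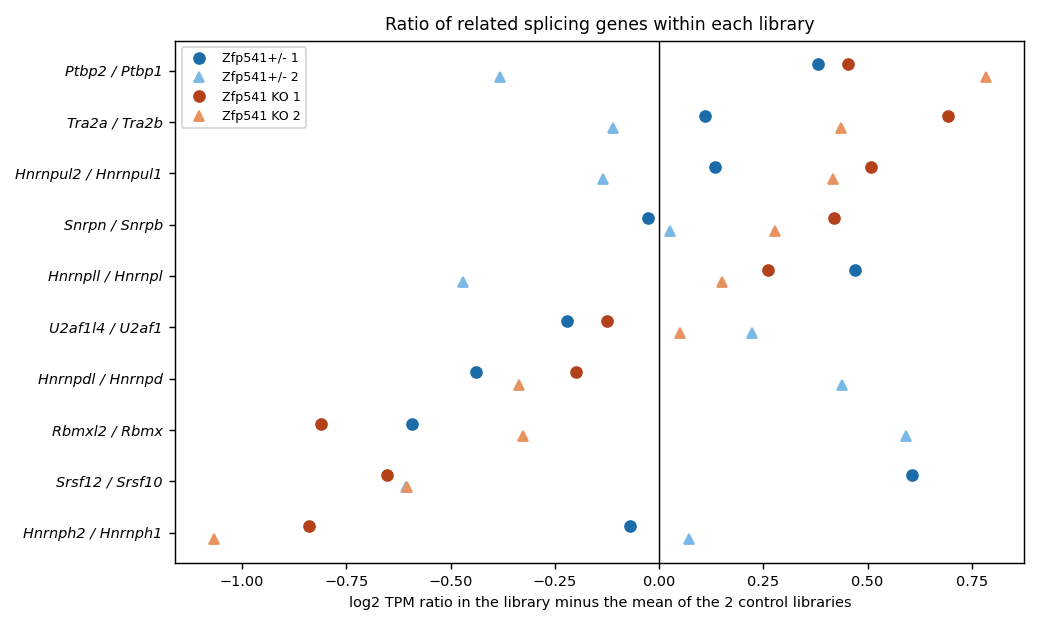
Log2 TPM ratio of 10 pairs of related splicing genes in each library, minus the mean of the 2 controls. Circles are replicate 1 and triangles replicate 2, and the KO points lie on one side of both control points for *Ptbp2*, *Tra2a*, *Hnrnpul2*, *Snrpn* and *Hnrnph2* relative to their partners.

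Outside the 81 names, 104 further splicing genes, listed with earlier results of these data known, were read from the same fit in 9 lists. Of these, 63 were higher in both KO libraries, 6 lower and 35 overlapped, which is 60.6% and 5.77%, against 38.6% and 12.1% of all genes tested, with a median of 0.36 against 0.28. At an unadjusted p under 0.05 there were 19 higher (18.3%) and 2 lower (1.92%), against 10.7% and 3.73%, with 0 past the adjusted threshold. The 29 tissue and alternative splicing regulators had 23 higher, 1 lower and a median of 0.65. *Celf2*, for a regulator of muscle and neuronal exons, was at 19.8 and 12.5 TPM against 39.0 and 43.8 TPM (1.34 ± 0.32, limma adjusted p = 0.310), and *Pcbp1* was the lowest at -0.60 ± 0.20. The 11 SR kinases and SR-related genes had 9 higher and a median of 0.72, led by *Pnn*, for pinin, at 166 and 74.0 TPM against 225 and 241 TPM, with the kinase gene *Srpk1* lowest at 0.018.

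The 11 spliceosomal helicases had 7 higher and 0 lower (all genes tested: 38.6% and 12.1%), with a median of 0.37, from *Ddx42* at 0.87 ± 0.27 to *Dhx16* at 0.095. The 10 LSm genes, for relatives of the Sm proteins, had 3 higher and 2 lower. Like that of the *Snrp* genes, their sum in the KO libraries fell between the controls. It was 1334 and 2462 TPM in control cells and 1810 and 1765 TPM in the KO libraries. *Lsm6* was highest at 0.80 ± 0.20 and *Lsm10*, of the U7 particle, lowest at -0.65 ± 0.22. The 16 PRPF19 complex and catalytic-step genes had 7 higher and 1 lower, the 10 branch-site and tri-snRNP genes 6 and 0, the 5 minor spliceosome genes 4 and 0 and the 4 exon junction genes 1 and 0. The extremes of these lists were *Cwc22* (0.69) and *Bud31* (-0.29), *Sart1* (0.61) and *Usp39* (-0.086), *Rnpc3* (0.82) and *Zcrb1* (0.064), and *Rbm8a* (0.51) and *Eif4a3* (-0.18). Of the 4 extremes with the lower values, all had overlapping groups. Among 8 genes for snRNP assembly, 3 were higher and 2 lower, *Gemin2* was highest at 0.46, and *Coil*, for the Cajal body protein coilin, was at 93.0 and 47.5 TPM in control cells and 29.3 and 37.0 TPM in the KO libraries (-0.99 ± 0.39, limma adjusted p = 0.362), the most negative of the 104.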

How the data were processed

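RNA of GFP-positive cells from 4 testes was sequenced as single-end 75 nt reads of TruSeq mRNA libraries, which select polyadenylated RNA. Reads were trimmed by the authors (Trim Galore 0.5.0, cutadapt 1.16), aligned to mm10 with STAR 2.6.0a and turned into TPM with RSEM 1.3.1, which divides reads between similar genes, and the authors deposited 1 table of TPM per sample, in which values sum to about 1000000 per library. From these TPM, the 14512 genes averaging 1 TPM or more were kept, and log2(TPM + 1) was modelled on genotype in limma 3.58.1 (R 4.3.3) using its mean-variance trend, and p-values were adjusted by Benjamini and Hochberg over those genes (threshold 0.05, two-sided). Strand use in counting is not given in the sources used here, so reads of overlapping antisense genes may be included. Fold changes on this scale understate the change of low genes. No source ties the replicates to litters, so p-values measure the spread between these libraries. The members, groups and gene lists were chosen with earlier results of these data known. Named were a fixed list of regulators, the 6 largest and 6 most negative differences, the extremes of each group and the paired genes. *Srsf* and other names were matched on symbols, and 27 rows whose names had become dates were not used. Positions and coding lengths (longest coding sequence per symbol) are from GENCODE M21 and promoters from RefSeq. The fit was run on simulated data and judged there only at a spread smaller than that of these libraries. At the spread of these libraries large differences were recovered slightly less often than first required, and no pass mark was applied. Alternatives were pseudocounts of 0.1 and 5, no filter, median-ratio and quantile scaling, no trend, the replicate number as a block and each library left out. Coding-length correction (lowess span 0.3) and a crossed block were chosen after seeing the data. The deviations of same-numbered libraries correlated at -0.16 over 14512 genes. With 2 libraries a group the crossed pairing gives the same value with the sign reversed, so this cannot show or exclude pairs. The numbers were not taken as pairs. The values of 1 splicing gene are not reported here by name, and its values stay in the counts over the 81.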

Additional observations from a re-analysis of the deposited data

How the results depend on the processing

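Removing the trend or adding the replicate block or the crossed block leaves the fitted differences unchanged by construction, so these settings cannot test their direction. The main changes of sign under the other settings are given below. No splicing gene passed the adjusted threshold except when a control was left out. The median of the splicing genes was 0.074 with median-ratio scaling and 0.14 with coding-length correction, with or without the block. Both KO libraries lay above both controls for 27 and 33 splicing genes in those settings (all genes: 22.6% and 22.9%), and below for 10 and 7 (all genes: 22.8% and 21.9%). The number at an unadjusted p under 0.05 was 2 with median-ratio scaling, 4 without the mean-variance trend and 9 with coding-length correction, against 11.7%, 13.1% and 11.1% of all genes. With the replicate number as a block it was 5 (all genes: 7.63%), with the replicate block and coding-length correction 0 (all genes: 6.06%), and no gene passed the adjusted threshold in either. The deviations of same-numbered libraries correlated at -0.16, and those of the crossed pairing at 0.16 by construction. With the crossed pairing 87 genes passed the adjusted threshold, 7 of them higher, with 0 splicing genes among them. In that fit 17 splicing genes were at an unadjusted p under 0.05 (all genes: 13.2%).

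With 1 library left out, a lone library is assumed to vary like the other pair. Genes past the adjusted threshold then ranged from 0 to 6985 and splicing genes past it from 0 to 55. Without control 1, 6985 of the 14512 genes tested and 55 of the 81 splicing genes passed, and without control 2, 4123 and 29 did. With either KO library left out, 0 passed. A large part of all genes passed with a lone control, so these counts were not read as a result about splicing genes. Splicing genes at an unadjusted p under 0.05 ranged from 0 to 60 (all genes: 1.32% to 57.8%). Those with every remaining KO library below every remaining control ranged from 4 to 18 (all genes: 15.6% to 36.0%). The 18 (22.2%) came from the fit without control 1, in which control 2 was the only control, against 25.01% of all genes. The 36.0% of all genes came from the fit without control 2, in which 9 splicing genes (11.1%) were lower.

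The difference changed sign for 21 of the 81 genes with median-ratio scaling, 7 with quantile scaling and 13 with coding-length correction, and for 13 without control 1 and 11 without control 2. The changes below are those of the fixed list and of the extremes under the naming rule, and not of every gene. The paired gene *Hnrnph2* also changed sign, to -0.050 with median-ratio and -0.00049 with quantile scaling. Its KO libraries lay on both sides of control 1 (0.087 and -0.089). With median-ratio scaling the difference changed sign for *Hnrnpc* (-0.019), *Hnrnpl* (-0.17), *Prpf19* (-0.22), *Prpf38a* (-0.31), *Snrpb* (-0.18), *Srsf12* (-0.24), *Tra2b* (-0.086), *U2af1* (-0.17) and *U2af1l4* (-0.21), and the median for SF3 (-0.28), *Snrp* (-0.19), U2AF (-0.17) and *Snrnp* genes (-0.29). With quantile scaling it did for *Prpf19* (-0.062), *Prpf38a* (-0.064), *Srsf12* (-0.24), *U2af1l4* (-0.021) and the SF3 median (-0.014), and with a pseudocount of 5 for *Srsf12* (-0.049). With coding-length correction, with or without the block, it did for *Hnrnpl* (-0.18), *Prpf19* (-0.20), *Prpf38a* (-0.14), *Prpf8* (-0.12), *Srsf12* (-0.12), the SF3 median (-0.15) and the *Snrnp* median (-0.031). The cause was not tested.

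Leaving out each library in turn moved the following of these genes through 0: *Hnrnpc* (-0.00046 to 0.63), *Hnrnpll* (-0.0080 to 0.75), *Prpf19* (-0.21 to 0.43), *Prpf38a* (-0.24 to 0.28), *Ptbp1* (-0.12 to 0.081), *Snrnp25* (-0.95 to 0.097), *Snrpa1* (-0.43 to 0.0055), *Snrpb* (-0.30 to 0.60), *Snrpd2* (-1.21 to 0.19), *Srsf12* (-0.79 to 0.80), *U2af1* (-0.017 to 0.34) and *U2af1l4* (-0.27 to 0.52). It did so too for the medians of the *Snrp* (-0.33 to 0.60), *Snrnp* (-0.043 to 0.35) and U2AF genes (-0.017 to 0.52), and for the log2 ratios of *Rbmxl2* to *Rbmx* (-1.16 to 0.024), *Hnrnpll* to *Hnrnpl* (-0.26 to 0.68), *Hnrnpdl* to *Hnrnpd* (-0.71 to 0.17) and *U2af1l4* to *U2af1* (-0.26 to 0.18). Without depth, the counting error of the scarce genes *Srsf12* and *Snrpn* is unknown.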

Other observations

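The relatives of *Rbmxl2* that the naming rule did not take were read after its values were seen. The X-linked *Rbmx* was at 21.5 and 13.6 TPM in control cells and 21.6 and 18.9 TPM in the KO libraries. The autosomal retrogene *Rbmxl1*, expressed in most tissues, was at 90.1 and 110 TPM against 121 and 113 TPM, and the Y-linked *Rbmy* at 39.1 and 63.5 TPM against 80.1 and 31.9 TPM. *Rbmx* and *Rbmy* overlapped between the groups, and *Rbmxl1* was slightly higher in both KO libraries (0.23 ± 0.20, limma adjusted p = 0.607). In every library *Rbmxl2* was the most abundant of the 4, and *Rbmx* the least. These genes are close copies, and how reads were divided between them cannot be seen in the TPM.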
